A study of Homo sapiens with 8 samples.

Results

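Genes of the endoplasmic reticulum (ER) that fold secretory proteins, sense unfolded ones or send them for degradation were compared between A375 cells with and without serum. The set held 35 genes of the 58051 counted, found by symbol from a written list, and all 35 were among the 17671 genes with enough counts to be tested. It was split into 19 folding genes (9 chaperones and co-chaperones, 3 genes of the lectin cycle and 7 disulfide enzymes), 4 sensors and factors of the unfolded protein response, 10 degradation genes and 2 subunits of the translocation channel.

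A375 is an established human melanoma cell line. In the study, 4 wild-type A375 lines, named WT1 to WT4, were each kept for 12 h in DMEM with 10% fetal bovine serum (the serum group, n = 4) or in DMEM without it (the serum-free group, n = 4), and total RNA depleted of ribosomal RNA was sequenced. How the 4 lines were derived is not described in the labels. Unless a replicate block is named, p-values rest on the spread between these lines within each condition. Only the replicate block described below uses the pairing of the 2 libraries of a line. Reads counted on genes ran from 29759279 to 73341551 per library. The libraries labelled WT4 are deposited under a name that does not read WT4, so counts of passing ER genes are also given without them.

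The labelled cell type was compared with marker genes in CPM, the counts of a gene per 1000000 counts of its library after scaling by edgeR's TMM method. The 10 melanoma lineage markers summed to between 275 and 417 CPM per library, with *NES* the most abundant and *MITF* between 30.1 and 44.2 CPM. *SOX10* had 0 counts in every library. Another gene, *POLR2F*, shares 5.39% of its exon bases in the annotation used here. Whether the 0 counts come from the line or from the counting was not tested. The pigment genes *MLANA*, *PMEL*, *TYR*, *TYRP1* and *DCT* each reached at most 2.90 CPM. The 6 markers of undifferentiated melanoma summed to between 648 and 1209.6 CPM, led by *AXL* at 309 to 656 CPM. Of the others, *TEAD1* was at 133 to 231, *WNT5A* at 67.8 to 200 and *NGFR* at 24.1 to 199 CPM. *EGFR* was at 8.98 to 36.3 CPM, and *SOX9* reached at most 0.640 CPM. Of the markers of other cell types, the leukocyte genes *PTPRC* and *LYZ* reached at most 0.0514 and 7.55 CPM, the 3 matched endothelial genes 47.4 CPM in sum (mostly *KDR*) and the 6 keratinocyte and epithelial genes 64.6 CPM (mostly *KRT10*, with *KRT1* at 0 in every library). *NECTIN1* was counted in all 8 libraries, at 44.9 to 67.4 CPM.

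Secretory and membrane proteins enter the ER through the SEC61 channel and are folded in its lumen by chaperones such as BiP, the product of *HSPA5*, by protein disulfide isomerases and by the lectins calnexin and calreticulin. Proteins that do not fold are drawn back into the cytosol and degraded by way of a ubiquitin ligase built on SYVN1 and SEL1L. Unfolded proteins in the lumen activate the sensors IRE1 (*ERN1*), ATF6 and PERK (*EIF2AK3*), which start the unfolded protein response: IRE1 splices *XBP1* RNA into the form that encodes an active transcription factor, ATF6 is cleaved into one, and PERK raises the translation of ATF4.

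All 19 folding genes and 5 of the 10 degradation genes had negative log2 fold changes without serum. With the replicate block and GC correction described below, 17 of the folding genes did. Of the 35 ER genes, 12 fell and 1, *OS9*, rose at an adjusted p under 0.05 (edgeR's quasi-likelihood test, adjusted over all 17671 tested genes by Benjamini and Hochberg's method). Of all tested genes, 14.0% were lower and 11.1% higher. The 12 that fell were *XBP1*, *HSPA5*, *DNAJB11*, *MANF*, *TXNDC5*, *ERO1A*, *PDIA3*, *CALR*, *DERL1*, *PDIA6*, *SEC61A1* and *HSP90B1*. All 4 serum-free libraries lay below all 4 serum libraries for 12 ER genes, against 15.0% of tested genes, and above them for 2 (*OS9* and *ERN1*), against 12.6%. With a replicate block, which pairs the libraries that share a line, 21 ER genes were lower and 3 higher, beside 22.4% and 23.2% of tested genes. In bulk libraries a change in every cell and a change in some of them cannot be told apart, and CPM is a share of the RNA counted, not an amount per cell.

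**Figure D1:**
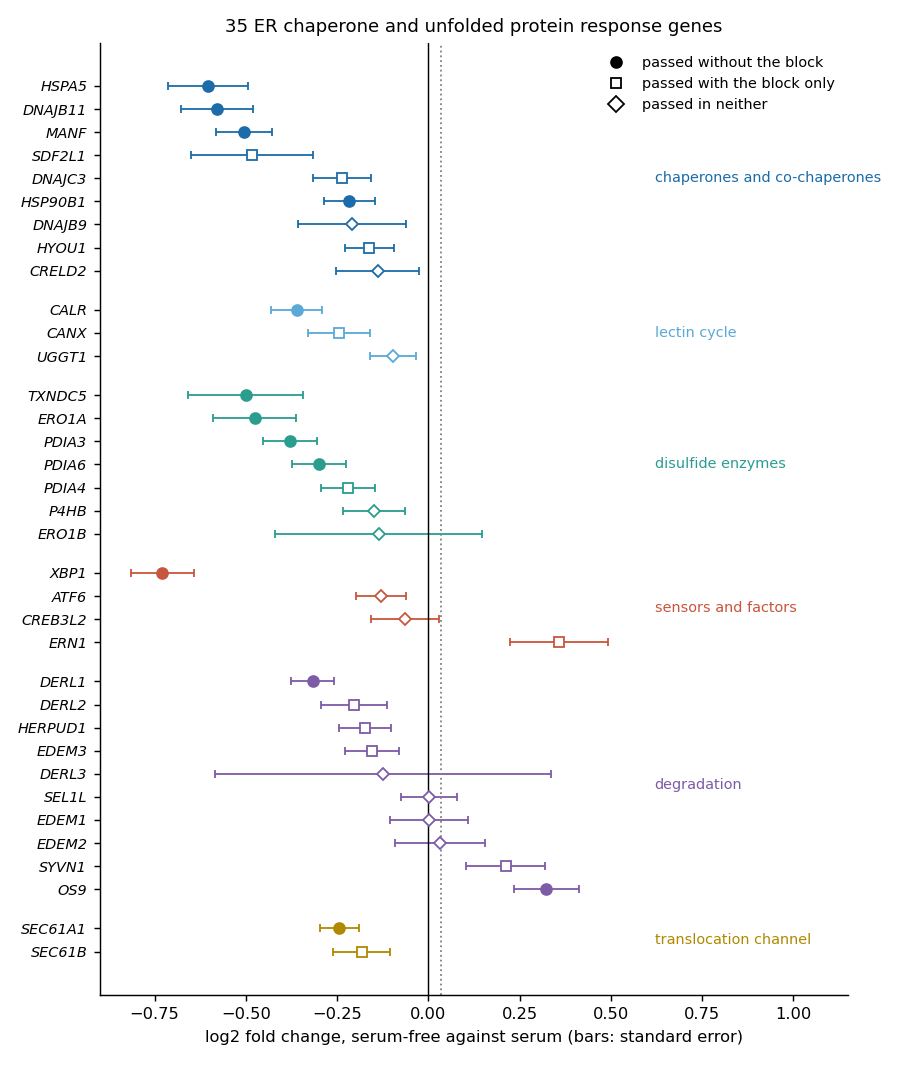
Log2 fold change of each of the 35 ER genes, serum-free against serum, with its standard error as a bar, grouped by role. Filled circles passed edgeR's test without the block, open squares with the replicate block only and open diamonds in neither. The dotted line is the median of all tested genes (0.033), and in this fit the 19 folding genes all lie to the left of 0.

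The median log2 fold change of the 35 genes was -0.20, against 0.033 over all tested genes. By line, the medians of the ER genes were -0.18, -0.18, -0.27 and -0.28 in WT1 to WT4. By role, the medians were -0.24 for the folding genes, -0.097 for the sensors and factors, -0.061 for the degradation genes and -0.21 for the channel subunits. In the same order they were -0.27, -0.030, -0.0039 and -0.24 with the block and GC correction. With library totals in place of TMM they were -0.12, 0.024, 0.061 and -0.093, beside 0.15 over all tested genes. In each of the 4 lines 20 of the ER genes were lower without serum and 3 higher (*OS9*, *SYVN1* and *ERN1*), beside 4697 and 5086 of the 17671 tested genes. Among the folding genes, 15 of 19 were lower in every line.

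Levels per gene length were given as RPKM, the CPM per 1000 bases of merged exons. The RPKM of the 35 genes summed to 1208, 1207, 1280.5 and 1253 with serum in WT1 to WT4 and to 983, 1033, 1045 and 948 without serum. Every serum-free sum lay below every serum sum, and the means were 1237 ± 36.1 and 1002 ± 44.9 RPKM (SD, n = 4). The RPKM of all tested genes summed to a mean of 245176 with serum and 220189 without, also with every serum-free library lower, although their median log2 fold change was 0.033. With the longest transcript's length in place of merged exons, the ER genes summed to a mean of 1870.5 RPKM with serum, so the level depends on the length used. Folding genes made up most of the ER sums with and without serum, at 1012 and 798 RPKM, whereas the degradation genes were at 102 and 101 RPKM. With serum the highest level was that of *CALR* at 355 ± 23.8 RPKM, which ranked 79 of the 17671 genes. It was followed by *HSPA5* at 149.6 ± 12.4 RPKM (rank 233) and *CANX* at 84.2 ± 9.01 RPKM (rank 436). Merged exons span 2802 bases for *CALR*, 6530 for *HSPA5* and 13764 for *CANX*, so order and ranks also depend on the length used. At the other end, *ERN1* was at 0.438 ± 0.0390 RPKM and *DERL3* at 0.125 ± 0.0612 RPKM with serum (SD, n = 4), the latter uncertain because other genes share 77.0% of its exon bases. Large falls were found at high and low levels alike: *HSPA5* and *DNAJB11* fell by similar factors although *DNAJB11* was at 3.83 ± 0.356 RPKM with serum.

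**Figure D2:**
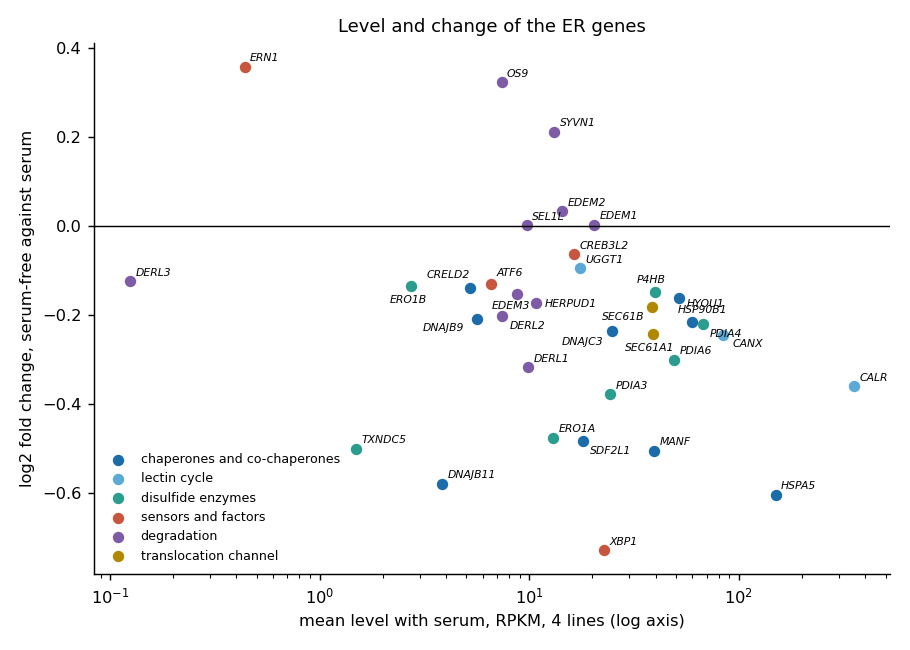
Mean level with serum in RPKM over the 4 lines (log axis) against the log2 fold change without serum for the 35 ER genes, coloured by role. With merged exons as the length, *CALR* and *HSPA5* have the highest levels. The 3 highest points, *ERN1*, *OS9* and *SYVN1*, are a sensor and 2 degradation genes.

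Because the set is known for shared promoter elements, the RefSeq promoter table (GRCh38.p14, 250 bases before to 50 after each gene start) was searched on both strands for motifs of the unfolded protein response, and 32 of the 35 genes had an entry; *PDIA3*, *DERL1* and *DERL3* were not in it. The ER stress element ERSE (CCAAT, 9 bases, CCACG) was found in 27 of 35116 entries, or 0.0769%, and 8 ER genes were among the 25 genes that hold it. ERSE-II (ATTGG, 1 base, CCACG) was found in 19 entries, or 0.0541%, and in 3 ER genes. The core of the unfolded protein response element, TGACGTGG, was in 0.729% of entries and in *HYOU1*, where it overlaps an ERSE-II, and *TXNDC5*. The core of the C/EBP-ATF element (TGATG, 1 base, AA) was in 3.62% of entries and in *HERPUD1* and *CREB3L2*. A match is a description of these letters and not a shown binding site.

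The 250 bases before the start are given for *HSPA5* and *XBP1*, which had the largest falls of the chaperones and of the sensors and factors, each 5′ to 3′ on the gene's strand with ERSE in capitals. The element begins 66 bases before the start of *HSPA5* and 52 before that of *XBP1*, in 1 of its 2 entries.
*HSPA5*, chr9:125241344-125241593, minus strand: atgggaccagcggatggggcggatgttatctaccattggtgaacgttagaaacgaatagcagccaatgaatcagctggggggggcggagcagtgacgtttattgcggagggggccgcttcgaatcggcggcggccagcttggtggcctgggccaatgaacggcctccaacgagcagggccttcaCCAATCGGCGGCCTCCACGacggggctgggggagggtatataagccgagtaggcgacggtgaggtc
*XBP1*, chr22:28800570-28800819, minus strand: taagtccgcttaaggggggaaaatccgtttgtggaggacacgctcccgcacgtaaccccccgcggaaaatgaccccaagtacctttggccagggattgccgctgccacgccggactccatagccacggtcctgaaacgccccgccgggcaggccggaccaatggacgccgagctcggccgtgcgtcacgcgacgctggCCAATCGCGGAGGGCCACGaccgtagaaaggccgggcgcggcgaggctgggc

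The same elements in the other 9 ER genes are shown with up to 16 bases on each side, so that they can be set beside the changes described below. Capitals mark the match, and a match on the opposite strand reads CGTGG, 9 bases, ATTGG for ERSE and CGTGG, 1 base, CCAAT for ERSE-II. ERSE is in *HSP90B1* (2 matches), *CRELD2*, *CALR*, *CANX*, *PDIA6* and *ERO1B*, and ERSE-II in *HYOU1* (2 matches, 1 shown), *SDF2L1* and *HERPUD1*.
*HSP90B1*, chr12:103930200-103930250, plus strand: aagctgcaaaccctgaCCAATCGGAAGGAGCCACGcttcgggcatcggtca
*HSP90B1*, chr12:103930305-103930355, plus strand: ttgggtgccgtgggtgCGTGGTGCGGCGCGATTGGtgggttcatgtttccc
*CRELD2*, chr22:49918538-49918588, plus strand: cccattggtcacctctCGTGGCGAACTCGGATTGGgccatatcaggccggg
*CALR*, chr19:12938368-12938418, plus strand: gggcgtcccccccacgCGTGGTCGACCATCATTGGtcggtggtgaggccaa
*CANX*, chr5:179698762-179698812, plus strand: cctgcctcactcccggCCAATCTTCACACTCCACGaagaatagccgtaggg
*PDIA6*, chr2:10812837-10812887, minus strand: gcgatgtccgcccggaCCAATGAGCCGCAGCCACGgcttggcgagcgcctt
*ERO1B*, chr1:236282167-236282208, minus strand: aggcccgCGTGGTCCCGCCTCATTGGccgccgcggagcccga
*HYOU1*, chr11:119057258-119057300, minus strand: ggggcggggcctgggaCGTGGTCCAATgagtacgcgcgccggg
*SDF2L1*, chr22:21642098-21642140, plus strand: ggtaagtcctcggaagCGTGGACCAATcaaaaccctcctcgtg
*HERPUD1*, chr16:56932009-56932051, plus strand: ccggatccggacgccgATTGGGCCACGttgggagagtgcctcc

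The 11 ER genes with either element had log2 fold changes from -0.73 to -0.14 and a median of -0.24, with 5 lower in edgeR's test and 9 with the block. For the 21 ER genes whose entries hold neither, the range was -0.58 to 0.36 and the median -0.15, with 5 lower and 1 higher, or 10 and 3 with the block. Of all tested genes, 14.0% were lower and 11.1% higher, or 22.4% and 23.2% with the block. The 2 groups also differ in role. All genes with either element except *XBP1* and *HERPUD1* are folding genes. Those with neither include the degradation genes *SEL1L*, *SYVN1*, *EDEM1*, *EDEM2*, *EDEM3*, *DERL2* and *OS9*. The difference in log2 fold change between these 2 groups was not tested and was not separated from role.

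Among chaperones, 4 of 9 fell (7 with the block), beside 14.0% of all tested genes (22.4% with the block), and the log2 fold changes of all 9 were negative. *HSPA5* (ENSG00000044574, chromosome 9, 125234853 to 125241343 of GRCh38), which encodes the lumenal HSP70 chaperone BiP, was at 992, 945, 1080.0 and 889 CPM with serum in WT1 to WT4 and at 634, 672, 749 and 515 CPM without. The groups did not overlap, and WT4 was lowest in both. Its log2 fold change was -0.60 (SE 0.11, edgeR adjusted p = 0.00485, SE being the standard error), a fall of 34.2%. In 12 refits, each lacking 1 library or both libraries of a line, the call held throughout, with an adjusted p of at most 0.0466.

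*DNAJB11* (ENSG00000090520, chromosome 3, 186570720 to 186585793), a J-domain co-chaperone of BiP, was at 34.2, 35.1, 40.8 and 33.6 CPM with serum and at 21.9, 25.4, 26.8 and 22.1 CPM without serum. Its groups were apart as well, with a log2 fold change of -0.58 (edgeR adjusted p = 0.00364). *MANF* (ENSG00000145050, chromosome 3, 51385291 to 51389397) encodes a secreted ER protein that binds BiP, and its level went from 86.3, 79.2, 84.8 and 85.7 CPM to 57.5, 62.8, 63.8 and 52.5 CPM. The 4 serum libraries of *MANF* lay within 79.2 and 86.3 CPM and the log2 fold change was -0.51 (edgeR adjusted p = 0.00235). Both calls held in all 12 refits.

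*HSP90B1* (ENSG00000166598, chromosome 12, 103930410 to 103947926), which encodes the lumenal HSP90 chaperone GRP94, fell much less. Its level was 829, 769, 829 and 689.9 CPM with serum and 670.4, 681, 688 and 644 CPM without. The groups were only just apart, since the serum library of WT4 was barely above the serum-free library of WT3. Its log2 fold change of -0.22 was just past the threshold (edgeR adjusted p = 0.0491), and the call was lost in 10 of the 12 refits (adjusted p up to 0.226) at log2 fold changes of -0.23 to -0.19. With the block it passed (0.00395 by edgeR), also without any 1 line, but with the block and a correction for GC content the value was -0.056 (edgeR adjusted p = 0.25).

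*SDF2L1*, part of the BiP chaperone complex, was at 14.6, 16.8, 19.4 and 25.2 CPM with serum and 12.3, 14.6, 15.4 and 12.0 CPM without. WT4 had the highest serum value and the lowest serum-free value, so that its own log2 difference was -1.06 against -0.25, -0.20 and -0.33 in WT1 to WT3. The log2 fold change of -0.48 did not pass (edgeR adjusted p = 0.0587) but did with the replicate block (-0.46, adjusted p = 0.00736), and without WT4 it was -0.27. *DNAJC3*, a co-chaperone also known as P58IPK, passed with the block and not without it (-0.24, edgeR adjusted p = 0.0555, 0.00622 with the block and 0.128 with GC correction added). The block also gave a call for *HYOU1*, the lumenal HSP110 family member (-0.16, edgeR adjusted p = 0.109 and, with the block, 0.0235). *DNAJB9*, a J-domain protein that binds IRE1, and *CRELD2*, a secreted ER protein, had log2 fold changes of -0.21 and -0.14 that passed neither with nor without the block (edgeR adjusted p = 0.331 and 0.405 without it), while *CRELD2* passed with the block and GC correction (-0.22, 0.0301). Both were lower in 3 of 4 lines, and in the refits they ran from -0.31 to -0.12 and from -0.23 to -1.9e-04, the last without WT4.

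In the lectin cycle, which retains glycoproteins until they are folded, 1 of 3 genes fell (2 with the block), beside the same 14.0% and 22.4%. *CALR* (ENSG00000179218, chromosome 19, 12938609 to 12944489), encoding calreticulin, was at 952, 941, 996 and 1088 CPM with serum and at 755, 800.4, 820.0 and 723 CPM without. All serum-free libraries lay below 941 CPM, the lowest serum value, and the log2 fold change was -0.36 (SE 0.069, edgeR adjusted p = 0.00595). *CANX*, encoding its membrane-bound counterpart calnexin, was at 1217, 1160.4, 1273 and 987 CPM with serum and 998, 1029, 992 and 896 CPM without. Here the serum library of WT4 lay below 3 of the serum-free libraries, and the log2 fold change of -0.24 passed with the replicate block (edgeR adjusted p = 0.0016) and not without it (0.0611). *UGGT1*, the glucosyltransferase that marks unfolded glycoproteins for another round, had a log2 fold change of -0.096 (edgeR adjusted p = 0.298).

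Disulfide enzymes fell in 4 of 7 cases (5 with the block), beside 14.0% and 22.4% of all tested genes. *PDIA3* (ENSG00000167004, chromosome 15, 43746438 to 43773278), the isomerase that works with calnexin and calreticulin, was at 305, 288, 294 and 254 CPM with serum and 225, 232, 219 and 201 CPM without. The groups did not overlap and WT4 was lowest in both, and the log2 fold change was -0.38 (edgeR adjusted p = 0.0066, or 0.0539 without WT1). *PDIA6*, an isomerase found in complexes with BiP, was at 202, 197, 219 and 187 CPM with serum and 163, 168, 175 and 148 CPM without. Its groups were apart and its log2 fold change was -0.30 (edgeR adjusted p = 0.0165), a call lost without WT1 (0.0993), WT2 (0.0724), WT3 (0.0541) or the serum library of WT3 (0.0514), with log2 fold changes of -0.32 to -0.26 in these refits. Other genes share 25.2% of its exon bases.

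*ERO1A* (ENSG00000197930, chromosome 14, 52639915 to 52695558), the oxidase that recharges these isomerases, was at 112, 106, 94.5 and 79.8 CPM with serum and 76.2, 77.5, 62.7 and 65.8 CPM without. WT1 and WT2 were the higher lines in both conditions, and the groups did not overlap. The log2 fold change was -0.48 (SE 0.11, edgeR adjusted p = 0.0147), and without WT1, WT2 or WT3 the adjusted p was 0.0689, 0.0571 and 0.0762, at log2 fold changes of -0.45, -0.48 and -0.45. Its paralog *ERO1B* had a log2 fold change of -0.14 (edgeR adjusted p = 0.765) with a wide spread, since WT4 was at 66.1 CPM with serum and WT1 at 30.7.

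*TXNDC5*, a further disulfide isomerase, was counted at 5.43, 6.48, 5.94 and 8.07 CPM with serum and 4.08, 5.12, 4.80 and 4.28 CPM without. These low values are uncertain, because 61.1% of its exon bases also belong to other annotated genes, mainly the readthrough gene *BLOC1S5-TXNDC5*, and HTSeq sets aside reads that fit more than 1 gene. Its log2 fold change of -0.50 (edgeR adjusted p = 0.044) lost its call in 11 of the 12 refits (adjusted p up to 0.123), at -0.58 to -0.35, and the adjusted p was 0.00716 with the replicate block. *PDIA4*, another isomerase of the lumen (-0.22, edgeR adjusted p = 0.0543) passed with the block (0.0057). *P4HB*, the founding disulfide isomerase, had a log2 fold change of -0.15 (edgeR adjusted p = 0.233, 0.0534 with the block and 8.69e-05 with GC correction added).

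**Figure D3:**
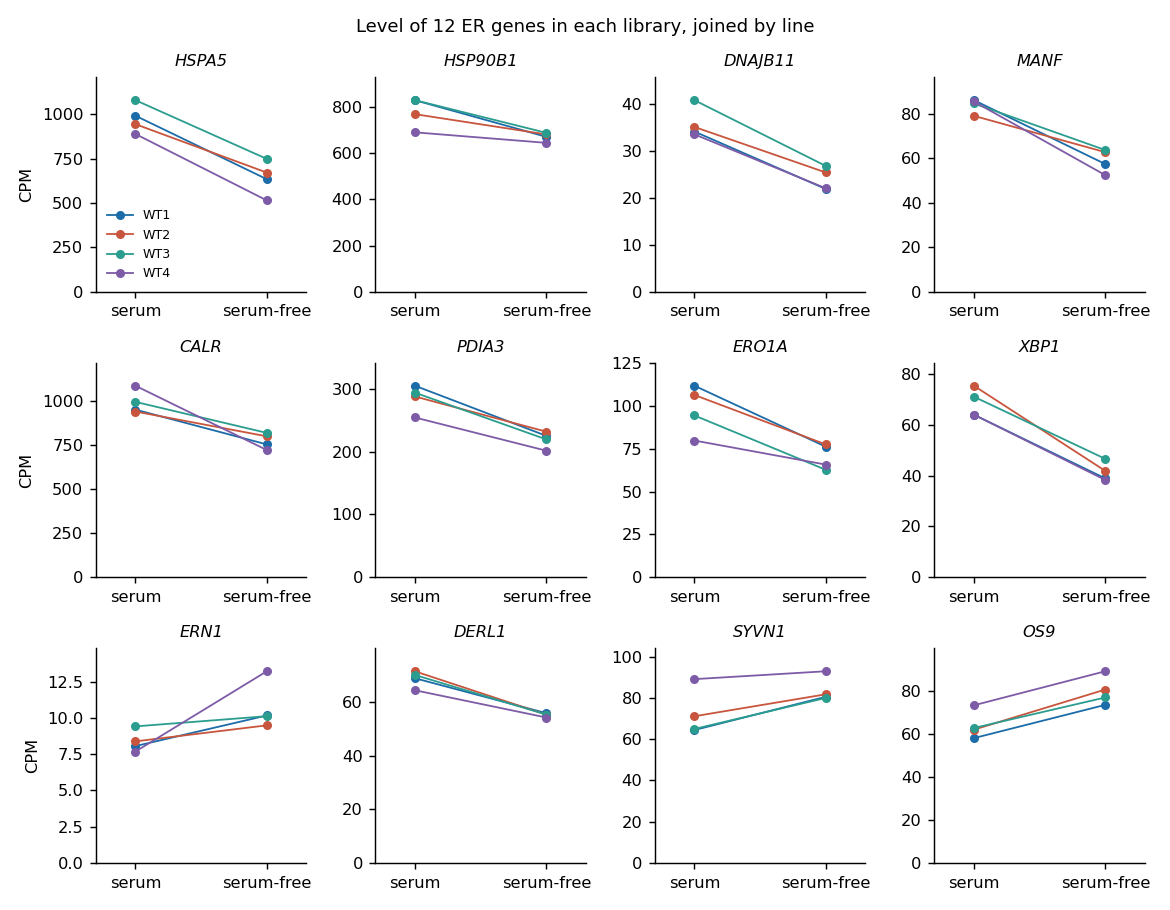
CPM of 12 ER genes in each of the 8 libraries, with the serum and serum-free library of a line joined. The 7 folding genes, *XBP1* and *DERL1* go down in all 4 lines, and *ERN1*, *SYVN1* and *OS9* go up in all 4.

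Of the 4 sensors and factors, 1 fell and none rose (1 and 1 with the block), beside 14.0% and 11.1% of all tested genes (22.4% and 23.2% with the block). *XBP1* (ENSG00000100219, chromosome 22, 28794560 to 28800569), whose RNA is the splicing target of IRE1, had the largest fall of the 35 genes. It was at 63.9, 75.3, 71.0 and 64.0 CPM with serum and 38.9, 41.8, 46.6 and 38.3 CPM without. The highest serum-free library, WT3, was still well below the lowest serum library, and the log2 differences by line were -0.72, -0.85, -0.61 and -0.74. The log2 fold change was -0.73 (SE 0.087, edgeR adjusted p = 0.00112), a fall of 39.7%, and the adjusted p was at most 0.0178 in the refits. The counts are per gene and do not separate spliced from unspliced *XBP1* RNA, so IRE1 activity was not measured.

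*ERN1* (ENSG00000178607, chromosome 17, 64039142 to 64130144), encoding the sensor IRE1 itself, was higher without serum in every line. It was at 8.06, 8.38, 9.42 and 7.68 CPM with serum and 10.2, 9.49, 10.1 and 13.2 CPM without. All serum-free libraries were above all serum libraries, WT4 by the widest margin, with a log2 difference of 0.78 in WT4 and 0.10 in WT3. The log2 fold change of 0.36 did not pass (edgeR adjusted p = 0.0777) and passed with the replicate block (0.34, adjusted p = 0.0253). Without WT4 it was 0.20, and the call with the block was lost without WT1 or WT4.

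*ATF6*, the sensor that is cleaved in the Golgi, was at 88.2, 98.5, 98.9 and 88.5 CPM with serum and 90.6, 82.5, 82.9 and 86.1 CPM without. WT1 was higher without serum and the other lines lower, the groups overlapped, and the log2 fold change of -0.13 did not pass with the block or without it (edgeR adjusted p = 0.111 and 0.188). *CREB3L2*, a related membrane-bound factor, had a log2 fold change of -0.064 (SE 0.093, edgeR adjusted p = 0.657).

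Of the 10 degradation genes, 1 rose and 1 fell without the block, about the shares of all tested genes (11.1% and 14.0%). With the replicate block 2 rose and 4 fell (20% and 40%), beside 23.2% and 22.4% of all tested genes. *OS9* (ENSG00000135506, chromosome 12, 57694132 to 57721557), a lectin that hands misfolded glycoproteins to the ligase complex, was at 58.1, 62.1, 62.8 and 73.4 CPM with serum and 73.6, 80.8, 77.1 and 89.3 CPM without. The lowest serum-free library, WT1, was above the highest serum library, WT4, by less than 1 CPM. The log2 differences by line were 0.34, 0.38, 0.29 and 0.28, and the log2 fold change was 0.32 (SE 0.090, edgeR adjusted p = 0.026). The call was lost in 9 of the 12 refits (adjusted p up to 0.127), where the log2 fold change stayed between 0.27 and 0.33, and kept with the block whichever line was left out. Other annotated genes, among them *AGAP2*, share 23.9% of its exon bases.

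*DERL1* (ENSG00000136986, chromosome 8, 123013170 to 123042302), a membrane protein of the retrotranslocation channel, was at 68.8, 71.4, 70.0 and 64.3 CPM with serum and 55.8, 55.2, 55.3 and 54.2 CPM without. The serum-free libraries lay within 54.2 and 55.8 CPM, and the log2 fold change was -0.32 (edgeR adjusted p = 0.00515, or 0.0562 without WT2). Its relative *DERL2* was at 50.1, 46.5, 49.0 and 43.96 CPM with serum and 40.7, 47.8, 39.7 and 36.4 CPM without. In WT2 it was slightly higher without serum, and the log2 fold change of -0.20 passed with the replicate block (edgeR adjusted p = 0.0262) and not without it (0.129) or with GC correction added (-0.036, 0.673).

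*SYVN1*, encoding the ubiquitin ligase HRD1 at the core of the degradation complex, was at 64.4, 71.0, 64.9 and 89.0 CPM with serum and 80.5, 81.7, 79.9 and 92.9 CPM without. It was higher without serum in every line, but the serum library of WT4 was above 3 of the serum-free libraries. The log2 fold change of 0.21 passed with the replicate block (edgeR adjusted p = 0.00804) and not without it (0.179) or with the block and GC correction (0.067). Without the block it passed when both libraries of WT4 (0.27, edgeR adjusted p = 0.00809) or its serum library (0.33, 0.0088) were left out. *HERPUD1*, a scaffold of the same complex and a textbook target of the unfolded protein response, was at 55.6, 57.1, 55.1 and 49.5 CPM with serum and 52.1, 45.9, 48.4 and 46.4 CPM without. The groups overlapped through the low serum library of WT4, and its log2 fold change of -0.17 passed with the block (edgeR adjusted p = 0.0329) and not without it (0.103).

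For the remaining degradation genes the differences were small. *SEL1L*, the partner of SYVN1, had a log2 fold change of 0.0011 (SE 0.077). It passed neither without the block nor with the block alone, but passed as higher with the block and GC correction. The mannosidase-like genes *EDEM1*, *EDEM2* and *EDEM3* were at 0.0024, 0.033 and -0.15 as log2 fold changes, with standard errors of 0.11, 0.12 and 0.074. Of these, *EDEM3* passed with the replicate block (edgeR adjusted p = 0.0476, against 0.156 without it and 0.588 with GC correction added). *DERL3* had 163 counts over all 8 libraries, too few to show a difference of the size seen in the other genes (log2 fold change -0.12, SE 0.46).

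Both channel subunits were lower in every line. *SEC61A1* (ENSG00000058262, chromosome 3, 128051641 to 128071683), the pore-forming subunit of the translocation channel, was at 467, 458, 450.0 and 456 CPM with serum and 396, 399.5, 374.7 and 374.8 CPM without. Its log2 fold change was -0.24 (SE 0.054, edgeR adjusted p = 0.0105). All serum-free libraries were below all serum libraries, but without WT1, WT2 or WT3 the adjusted p was 0.0727, 0.0654 and 0.0616, at log2 fold changes of -0.25, -0.26 and -0.25. *SEC61B*, the small beta subunit, was at 42.1, 44.8, 49.7 and 49.7 CPM with serum and 39.4, 42.3, 43.8 and 38.8 CPM without. The groups overlapped in part, and the log2 fold change of -0.18 passed with the replicate block (edgeR adjusted p = 0.0353) and not without it (0.117).

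How many ER genes passed depended on which lines were in the fit and on the scaling. Leaving out a line gave 6 lower ER genes without WT1, 6 without WT2, 7 without WT3 and 15 without WT4, and with the replicate block 15, 17, 16 and 22. Calls over all tested genes also dropped without WT1, WT2 or WT3, from 4434 to 1589, 1975 and 1873, and were 5631 without WT4. With the block they were 8067 over all 4 lines and 6185, 6485, 6197 and 8938 without WT1 to WT4. With the block, all 12 genes that fell over the 8 libraries were also lower in each of these 4 fits. Of the genes that passed edgeR's test over all 8 libraries and TMM scaling with the block and not without it, *SDF2L1*, *CANX* and *PDIA4* kept the call in all 4, *DNAJC3* in 3, *SYVN1*, *DERL2* and *ERN1* in 2, *HYOU1*, *HERPUD1* and *EDEM3* in 1 and *SEC61B* in 0. Library totals in place of TMM, a scaling chosen after seeing the data, moved the median of all tested genes up by 0.12 on the log2 scale, to 0.15. Under it, 8 ER genes were lower and 2 higher, while the split over all genes went from 1957 higher and 2477 lower to 3168 higher and 1365 lower. *HSPA5*, *DNAJB11*, *MANF*, *CALR*, *PDIA3*, *ERO1A*, *XBP1* and *DERL1* were lower and *OS9* higher under both scalings. Fold changes also varied with GC content across genes, so a correction for the GC content of transcripts was made together with the block. It gave 19 lower and 3 higher ER genes (*OS9*, *ERN1* and *SEL1L*), beside 22.7% and 23.9% of 17425 genes.

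**Figure D4:**
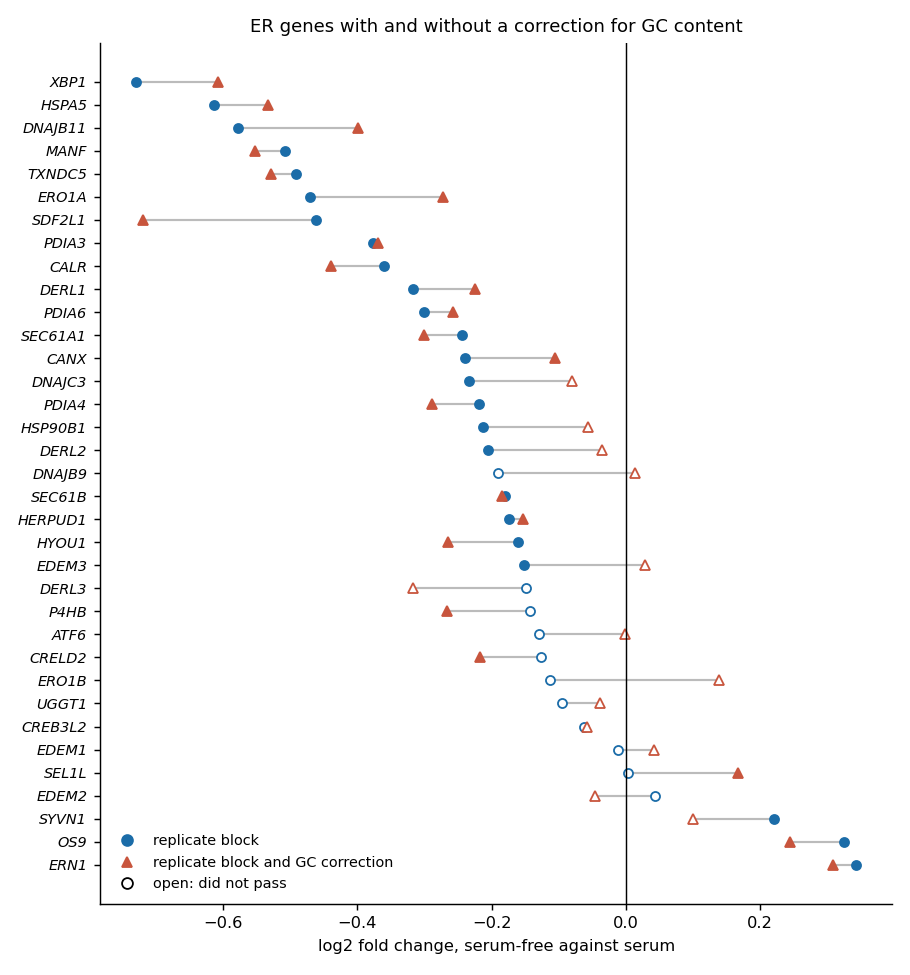
Log2 fold change of the 35 ER genes with the replicate block (circles) and with the block and a correction for GC content (triangles); filled symbols passed edgeR's test. *XBP1*, *HSPA5*, *DNAJB11* and *MANF* stay at -0.40 or lower after the correction, while *HSP90B1* moves to -0.056.

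The deposited counts leave out reads with several alignments, whose share was 22.7, 16.8, 7.09 and 10.1% with serum and 6.76, 7.23, 7.73 and 5.73% without, in WT1 to WT4. The share was higher with serum in WT1, WT2 and WT4, so in these lines it moves together with the condition, and its effect on the ER genes was not tested.

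The other genes of the ER pathway, 164 genes in 6 lists, are given beside the 35. Of 161 tested, 61 were lower and 7 higher without serum, with a median log2 fold change of -0.19. Of all tested genes, 14.0% were lower and 11.1% higher, shares that also stand beside the lists below. With the replicate block the counts were 83 and 19, beside 22.4% and 23.2% of all tested genes. With library totals in place of TMM they were 34 and 18, beside 1365 lower and 3168 higher of the 17671 tested genes. Among genes of translocation and N-glycosylation, 21 of 34 fell, including *SRPRA*, a subunit of the signal recognition particle receptor (-0.56, edgeR adjusted p = 9.14e-04), and *RPN1*, a subunit of the oligosaccharyltransferase (-0.45, 0.00112), and the mannosyltransferase gene *ALG12* rose (0.34, 0.0489; not with the block and GC correction, 0.0636), although 42.3% of its exon bases lie in other genes, *CRELD2* among them. In ER to Golgi transport 12 of 30 fell, among them *SAR1B*, the GTPase of the vesicle coat (-0.50, 0.00334), and *KDELR2*, a receptor that returns escaped chaperones (-0.55, 0.00364), and *GOLGB1*, encoding the Golgi tether giantin, rose (0.35, 0.00857).

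Of 39 other ER folding genes 11 fell and 0 rose (18 and 5 with the block, 7 and 4 with library totals). The smallest p were those of the thioredoxin-like genes *TMX2* (-0.58, edgeR adjusted p = 8.55e-04) and *TXNDC12* (-0.58, 9.96e-04), although 65.1% of the exon bases of *TXNDC12* lie in other genes. Of the 29 other degradation genes, 6 fell (20.7%) and 3 rose (10.3%), beside 14.0% and 11.1% of all tested genes. With the block 10 fell and 5 rose (34.5% and 17.2%), beside 22.4% and 23.2% of all tested genes. With library totals 1 fell and 6 rose. Those that fell include *ERLIN1*, a membrane protein that marks channels for degradation (-0.42, edgeR adjusted p = 0.00235) and *FAF2*, which recruits the extraction ATPase VCP (-0.29, 0.00693). Those that rose include the VCP cofactor gene *UBXN6* (0.60, 0.00262, with 28.8% of its exon bases in other genes) and the ubiquitin ligase gene *TMEM129* (0.78, 0.00412). Of 11 tested other sensors and factors, 3 fell, including *TRAF2*, an adaptor of IRE1 (-0.33, edgeR adjusted p = 0.00961) and the deubiquitinase gene *YOD1* (-0.51, 0.0179), and 2 rose, the membrane-bound factors *CREB3L4* (0.91, 0.00337) and *ATF6B* (0.45, 0.0198). The median log2 fold change of these 11 genes was 0.21, above 0. With the block 3 fell and 5 rose, and with library totals 1 fell and 4 rose.

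In the PERK and ATF4 branch 8 of 18 genes fell and 0 rose (10 and 1 with the block), and the median was -0.42. The highest log2 fold change of the list, 1.96, did not pass without the block. *ATF4* was at 289, 309, 284 and 301 CPM with serum and 199, 197, 205 and 202 CPM without. All 4 lines were lower and the groups were far apart (-0.56, edgeR adjusted p = 8.46e-04), and *CHAC1*, a glutathione-degrading enzyme gene downstream of ATF4, was lower as well (-2.94, 0.00164). The sensor gene *EIF2AK3* and the factor gene *DDIT3* did not pass, at -0.042 and -0.38 (edgeR adjusted p = 0.778 and 0.225), and 39.6% of the exon bases of *DDIT3* lie in other genes. Of 33 chaperones of the cytosol and mitochondria, 26 fell, with a median of -0.52 beside -0.24 for the 9 ER chaperones. *HSPA8*, the cytosolic relative of *HSPA5*, had a log2 fold change of -1.04 (edgeR adjusted p = 9.45e-04) and *HSPH1*, that of *HYOU1*, had -0.72 (9.96e-04). No list was tested against another.

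**Figure D5:**
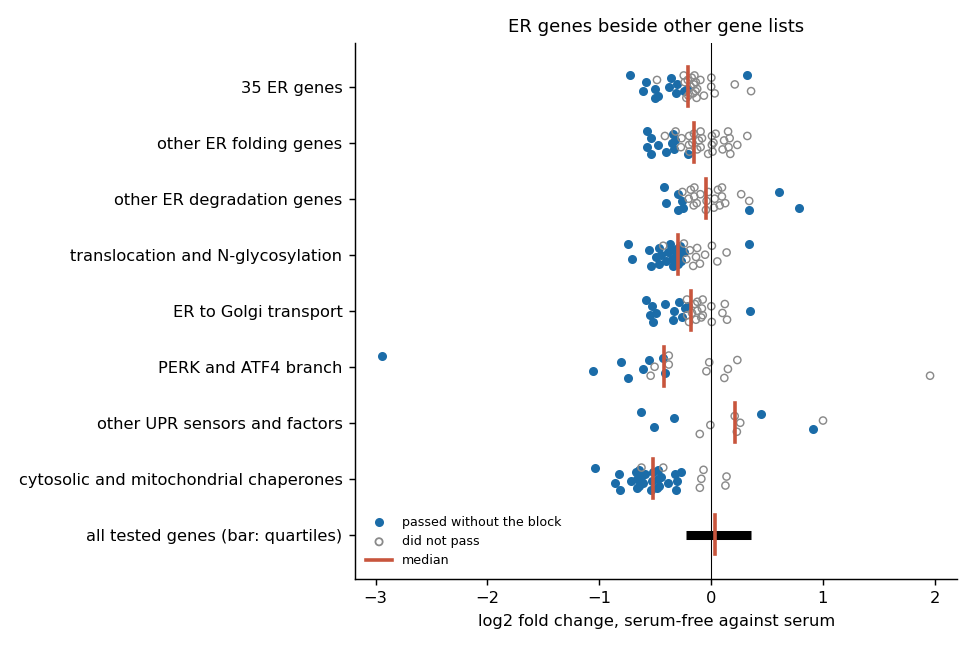
Log2 fold changes, serum-free against serum, of the 35 ER genes, the 6 lists of other ER pathway genes and the chaperones of the cytosol and mitochondria; filled points passed edgeR's test without the block, red bars are medians, and the black bar spans the quartiles of all tested genes. The median of the ER genes is at -0.20 and that of the cytosolic and mitochondrial chaperones at -0.52.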

How the data were processed

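The authors deposited raw counts of reads per gene, whole numbers made with HTSeq on GRCh38, after trimming with cutadapt and alignment with TopHat2 2.0.11 per the submitters' notes. The paper's methods give hg19 as the genome, so the build rests on these notes. Neither strand setting nor annotation release is given in the sources used here, so genes that overlap others are uncertain. From the counts, CPM, RPKM and log2 fold changes were computed in R 4.3.3. Genes kept by filterByExpr were scaled by TMM and tested without a block in edgeR 4.0.16 (glmQLFit with robust estimation, glmQLFTest), at a Benjamini-Hochberg adjusted p under 0.05. The alternatives were the replicate block, alone and with GC correction, DESeq2 1.42.0, voom in limma 3.58.1, RLE and upper-quartile scaling, 2 other filters, and each library and line left out. Library totals in place of TMM, and each line left out with the block, were added after seeing the data.

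The line number pairs the libraries, because both conditions were run on the same 4 lines per the labels. Deviations from the condition means correlated across genes at 0.43, 0.61, 0.48 and 0.62 between the libraries of WT1 to WT4, and at most at 0.14 in the 12 pairs of different lines. Gene lengths and GC content are from GENCODE lifted to GRCh37, promoters and positions from RefSeq on GRCh38.p14. The 35 genes and the other lists were chosen with earlier results of these data known. Values for every library are given for up to 4 ER genes of each subgroup, those with the largest change among the genes that passed with or without the block, and for *HSPA5*, *HSP90B1*, *XBP1*, *ATF6*, *ERN1* and *HERPUD1*. Other lists are represented by *ATF4*, *DDIT3*, *EIF2AK3* and up to 2 genes per direction with the smallest p. Protein sequences were not analysed here.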

Additional observations from a re-analysis of the deposited data

Results flagged for a closer look

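The values of the 35 ER genes and of their summed level in each condition, 72 groups of 4 lines, were searched for a line set apart from the other 3 by Dixon's ratio for 4 values. There were 3 such values, where chance gives about 3.60, or 1 in 20. *UGGT1* without serum was at 174 CPM in WT2 and at 188 to 190.1 CPM in the other lines. *SYVN1* without serum was at 92.9 CPM in WT4 and at 79.9 to 81.7 CPM in the others. *EDEM1* with serum was at 132 CPM in WT3 and at 139 CPM in the others. The cause was not tested for any of them.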

How the results depend on the processing

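The 57 named genes were refitted under 26 settings. Of 1481 log2 fold changes, 1317 kept their side of the threshold, 90 lost the call, 74 gained it and none that passed changed sign. Among the 35 ER genes, the replicate block changed no other call than those given with the results. Over all tested genes, 8067 changed with the block in place of 4434, and 8131 with the GC correction. With library totals and the block it was 8325.

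Of the ER genes, 2 were higher with DESeq2, with upper-quartile scaling or with library totals, and 3 with the block, alone, with GC correction or with library totals. The block gave 21 lower ER genes, 19 with GC correction and 12 with library totals. The median of the ER genes was -0.14 with upper-quartile scaling, -0.083 with library totals and -0.071 with library totals and the block. Other ER pathway genes that were higher numbered 12 with upper-quartile scaling, 18 with library totals, 19 with the block, 21 with GC correction added and 33 with library totals and the block, and those lower numbered 34 with library totals, and 58 in place of 83 with library totals and the block. With the block and GC correction, 17 of the 19 folding genes had negative values, with library totals 18, and 17 with both block and totals. Upper-quartile scaling split all changed genes into 2508 higher and 1843 lower, 57.6% higher in place of 44.1%, and library totals made 69.9% higher. With library totals and the block, the split over all tested genes was 5832 higher and 2493 lower. The summed level of the ER genes with serum, 1237 RPKM, was 1870.5 with the longest transcript's length and 1186 with library totals.

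With a library or a line left out, changed genes ran from 1589 (without WT1) to 6128, higher ER genes from 0 to 2, lower ER genes from 6 to 15, their median from -0.23 to -0.19, and other ER pathway genes from 3 to 15 higher and from 25 to 75 lower. The 0 came from edgeR's test in 9 of the 12 refits, with 1 or 2 ER genes higher at an unadjusted p under 0.05, and over all libraries DESeq2 gave 2 and voom 1. With the block and a line left out, the ranges were 6185 to 8938, 1 to 3 and 15 to 22 for the ER genes, and 9 to 23 and 69 to 95 for the others. The cause was not tested. *DERL3* has too few counts to show small differences.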
